A study of Mus musculus with 24 samples.

Results

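Heparan sulfate is built by a short line of enzymes, and the transcripts of 10 genes of that line are described here across breast cancer cells and mammary tumors of the mouse in which pleiotrophin was reduced or blocked. The 10 are Ext1, Ext2, Ndst1, Ndst2, Glce, Hs2st1, Hs6st1, Sulf2, Gpc1 and Hspg2, and they are 10 of the 12091 genes in the deposited table. They were chosen by symbol from that table, with their differences between treated and control samples in the 4 experiments already known. Those differences are therefore given as descriptions, and members are tested only where 2 cell lines are compared without knockdown. That comparison shares its control samples with the knockdowns, so its p-values for members are not independent of the choice. Where members are counted among the called genes of a knockdown, the count is a description too and is not read as evidence. Each of the 10 genes passed the filter on low values in every comparison.

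Heparan sulfate is a long, sulfated sugar chain that grows on core proteins in the Golgi and then sits at the cell surface or in the matrix between cells, where many growth factors bind it. EXT1 and EXT2 together lengthen the chain, enzymes of the NDST family swap acetyl groups for sulfate on glucosamine, GLCE flips glucuronic to iduronic acid, and HS2ST1 and HS6ST1 add further sulfates, so that each cell makes chains with its own pattern. SULF2 trims sulfates from finished chains outside the cell, glypican (Gpc1) and perlecan (Hspg2) carry the chains at the membrane and in basement membranes, and pleiotrophin, a small secreted growth factor, binds heparan sulfate and the related chondroitin sulfate.

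RNA was sequenced as paired reads of 150 nt from 24 samples, 3 in each of 8 groups. For 4T1, a mammary carcinoma line of BALB/c mice, cells were placed in a mammary fat pad of females aged 8 wk, and once tumors could be felt the mice received C44, a control antibody, or 3B10, an antibody against pleiotrophin. In MMTV-PyMT mice on the FVB/N background, in which a mammary promoter drives a viral oncogene, treatment with C44 or 3B10 ran from 8 to 12 wk of age. Both antibodies were given at 15 mg/kg. The cultured lines were E0771, a mammary cancer line of C57BL/6 mice, and E0771-LG, which was derived from a lung metastasis of E0771 cells. Each line carried either shCtrl, a short hairpin against EGFP, or shPTN, a single hairpin against Ptn, and was kept in puromycin for 6 wk. Every hairpin group is therefore 1 selected cell population, and with 1 hairpin the loss of Ptn and any other effect of that hairpin cannot be told apart.

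Values are log2. In the 12 cell samples and the 6 PyMT tumors they are log2 CPM, that is, read counts scaled to one common library total, and the steps between them give back whole reads, with 15.63 to 21.12 M reads per sample and a median of 18.25 M. In the 6 4T1 tumors the values are also scaled by gene length, the depth is unknown, and levels in those tumors are compared only with each other. Shares of genes within a sample are the exception, and in 4T1 tumors they rest on the authors' scaling by length. The labelled cells were checked against marker genes. In E0771 shCtrl cells 8 of 10 epithelial markers were below 1 CPM in all 3 samples, with Krt19 and Krt5 at 0, and Krt8 was the most abundant of the list with a mean of 98.5. The same number was below 1 in E0771-LG shCtrl cells, where Krt8 had a mean of 159. In the tumors Krt8 (PyMT) and Krt18 (4T1) led the epithelial list, and 10 of 10 and 9 of 10 markers reached 1 in every sample.

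Ptn itself was low wherever its hairpin was used. E0771 shCtrl cells had 128, 92 and 80 Ptn reads and shPTN cells 12, 21 and 22. E0771-LG shCtrl cells had 216, 446 and 248 reads and shPTN cells 56, 35 and 45. In both lines every shPTN sample lies below every shCtrl sample, so the hairpin labels of the 12 cell samples hold. The line labels are not checked by this. Midkine (Mdk), the other growth factor of that family, had 61 to 91 reads in E0771 shCtrl and 109 to 243 in shPTN cells, against 10 to 21 and 1 to 5 reads in E0771-LG.

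The first question is how the heparan sulfate genes differ between the metastasis-derived line and E0771 when neither lacks Ptn. Per the authors' methods the lines were gifts from different laboratories, and each side here is 1 selected cell population. Origin from a metastasis, stock and selection cannot be told apart, and the p-values rest on the spread of samples within these populations. In E0771-LG shCtrl cells the chain polymerase Ext2 was at 0.363 of its level in E0771 shCtrl cells and perlecan at 0.51, and most modifying enzymes were lower by smaller amounts. All 10 members had a lower mean in E0771-LG as deposited, though Ndst1 turned under median-of-ratios scaling and Ndst2 and Sulf2 under quantile normalization. Of the 10, 7 passed the test (limma, adjusted p below 0.05): Ext1, Ext2, Glce, Hs2st1, Hs6st1, Gpc1 and Hspg2. Of all 10411 genes tested, 35.3% were called lower and 19.2% higher, so lower calls are common in this comparison. Marker sums differ as well: leukocyte genes had 16.8, 30.9 and 24.4 CPM in E0771 and 107, 102 and 103 in E0771-LG. Within that list Laptm5 went from a mean of 6.02 to 85.1 and Cd14 from 7.65 to 17.4, Cd68 from 10.3 down to 1.06, and Itgam, Cd3e, Cd3g and Tyrobp were at 0 in both. Epithelial genes had 99.7, 114 and 107 against 159, 205 and 165, and the adipocyte gene Fabp4 a mean of 1.44 against 13.8. Fibroblast sums overlapped (74.6, 101 and 86.4 against 93.4, 149 and 110), with Pdgfra higher (means 36.5 and 77.8) and Col3a1 lower (21.4 and 5.02). Endothelial sums overlapped too (216, 237 and 220 against 227, 218 and 210), though Esam went from 9.05 to 1.3. The part of these markers in the members' differences was not tested. The median log2 fold change was −0.51 over the members and −0.15 over all genes tested. These control samples also serve the knockdown comparisons, whose results were known when the members were chosen. The members' p-values here are therefore not independent of that choice, and no overlap between the comparisons is given.

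Among the chain polymerases, Ext2 had log2 levels of 7.96, 7.98 and 8.05 in E0771 and 6.32, 6.67 and 6.62 in E0771-LG, from 4306 to 5158 reads against 1382 to 1996. The groups lie far apart, and no E0771-LG sample comes within 1 log2 unit of an E0771 sample. Lower in 3 of 3 samples, Ext2 had a log2 fold change of −1.46 (SE 0.11), at an adjusted p of 6.4e-06. Ext1, its partner in the same complex, had 7.03, 6.77 and 6.84 in E0771 and 6.65, 6.43 and 6.54 in E0771-LG. These groups are separate by a narrow margin, and Ext1 was lower in 3 of 3 samples (−0.34 on the log2 scale, SE 0.11, adjusted p 0.0208).

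Of the modifying enzymes, Hs2st1, which places sulfate on the uronic acid, had 7.29, 7.32 and 7.23 in E0771 and 6.81, 6.41 and 6.71 in E0771-LG. Every E0771-LG sample is lower (log2 fold change −0.64, SE 0.12, adjusted p 0.00106). Glce, the epimerase, had 7.26, 7.49 and 7.40 against 6.88, 6.98 and 6.81, again without overlap (−0.49, SE 0.10, adjusted p 0.00211, 3 of 3 samples lower). Hs6st1, which sulfates glucosamine at its sixth carbon, had 6.35, 6.54 and 6.49 against 5.96, 6.14 and 6.10. Its groups are separate as well (−0.40, SE 0.10, adjusted p 0.00837, 3 of 3 lower). The sulfotransferases that start the modification had the smallest differences. Ndst1 had 7.51, 7.51 and 7.49 against 7.48, 7.29 and 7.52, which overlap (−0.07, adjusted p 0.531), and Ndst2 had a log2 fold change of −0.23 (adjusted p 0.118) with 3 of 3 samples lower.

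The core proteins and the editing enzyme moved by different amounts. Hspg2, which encodes perlecan, had 8.90, 9.26 and 9.64 in E0771 and 7.96, 8.32 and 8.59 in E0771-LG. Its replicates spread widely and yet do not overlap (log2 fold change −0.97, SE 0.22, adjusted p 0.00659, 3 of 3 lower). Gpc1, which encodes a glypican, had 7.96, 8.16 and 8.07 against 7.08, 7.91 and 7.55, with 1 E0771-LG sample just under the E0771 samples (−0.55, SE 0.19, adjusted p 0.0343, 3 of 3 lower). Sulf2, the sulfatase, was low in both lines with 91 to 136 reads in E0771 and 56 to 98 in E0771-LG, and the groups overlap (−0.53, SE 0.29, adjusted p 0.137).

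**Figure D1:**
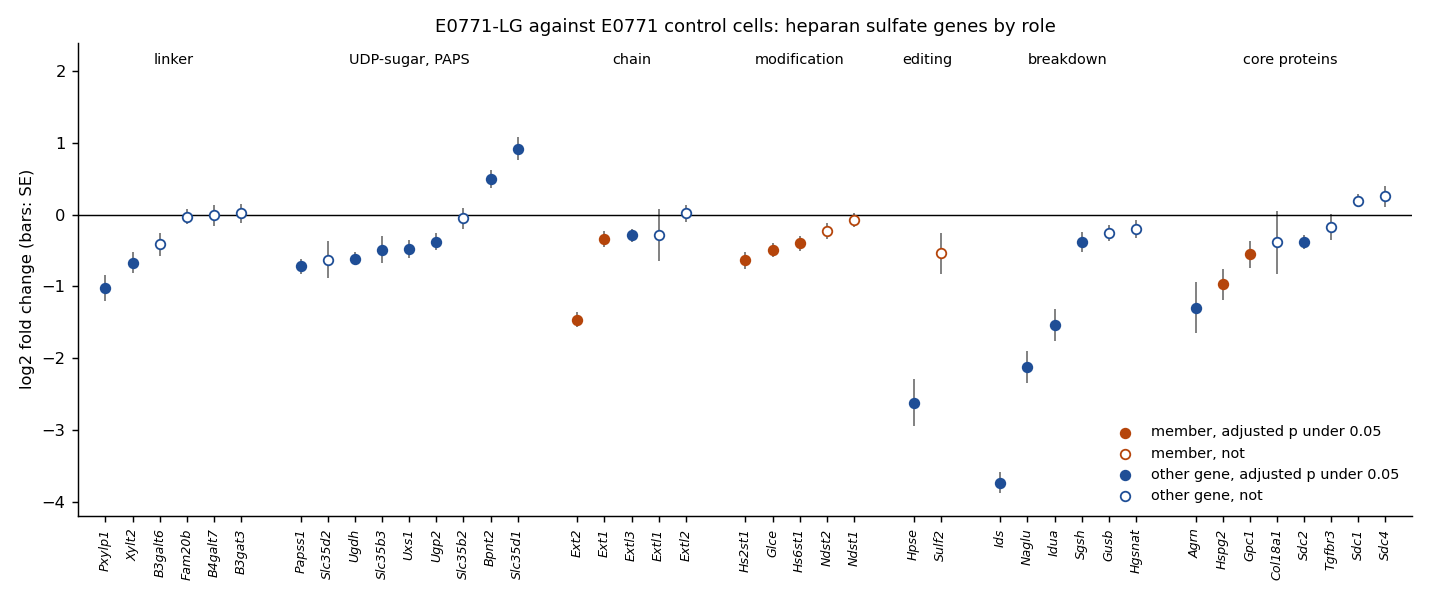
Log2 fold change with its SE of heparan sulfate genes in E0771-LG against E0771 control cells (3 samples each), grouped by role, with the 10 members in orange, other genes in blue and filled points for adjusted p below 0.05. Most filled points lie below 0, Ids is the farthest, and Ext2 is the lowest of the members.

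Scaling matters here. Median-of-ratios scaling moved the median log2 fold change of all genes from −0.15 to −0.01 and the share of calls that were higher from 35.3% to 49.6%. Relative to the median of all genes, the members' median was −0.37 as deposited and −0.36 under that scaling. That scaling moves all genes by nearly the same amount, so these values were bound to match. Under median-of-ratios scaling 4 members passed, Ext2, Glce, Hs2st1 and Hspg2, while Ext1 (adjusted p 0.161), Hs6st1 (0.0563) and Gpc1 (0.0714) did not. Of all genes, 27.5% were called lower under that scaling. The members that turned did so to small values, Ndst1 to 0.07 under that scaling and Ndst2 to 0.06 and Sulf2 to 0.04 under quantile normalization, which also ended the call of Ext1 (0.052). Gpc1 did not pass without the filter (0.0558). Leaving out a single library ended the call of Ext1 in 4 cases: without E0771 shCtrl replicate 1 (0.0972) or 3 (0.0543) and without E0771-LG shCtrl replicate 2 (0.0578) or 3 (0.059). The call of Gpc1 ended without E0771 shCtrl replicate 1 (0.0585), 2 (0.0854) or 3 (0.0862) and without E0771-LG shCtrl replicate 3 (0.0576).

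RefSeq (GRCm38.p6) holds start regions for 7 of the 10 members. Those of Ext2, Glce, Hs2st1, Hs6st1 and Hspg2 are shown, because these members were called lower together in E0771-LG cells. Each sequence covers 250 bases before and 30 bases after the start, read 5′ to 3′ on the gene's own strand, and capitals mark a GC box, GGGCGG or its reverse complement CCGCCC. Ext2 lies on the minus strand at chr2:93822539-93822818, Glce on the minus strand at chr9:62122580-62122859, Hs2st1 on the minus strand at chr3:144570187-144570466, Hs6st1 on the plus strand at chr1:36068150-36068429 and Hspg2 on the plus strand at chr4:137468553-137468832.
Ext2: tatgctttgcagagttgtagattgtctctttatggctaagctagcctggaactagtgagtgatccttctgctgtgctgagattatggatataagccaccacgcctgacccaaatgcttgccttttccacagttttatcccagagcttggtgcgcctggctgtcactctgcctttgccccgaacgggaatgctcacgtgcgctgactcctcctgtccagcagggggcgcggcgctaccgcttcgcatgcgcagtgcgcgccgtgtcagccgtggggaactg
Glce: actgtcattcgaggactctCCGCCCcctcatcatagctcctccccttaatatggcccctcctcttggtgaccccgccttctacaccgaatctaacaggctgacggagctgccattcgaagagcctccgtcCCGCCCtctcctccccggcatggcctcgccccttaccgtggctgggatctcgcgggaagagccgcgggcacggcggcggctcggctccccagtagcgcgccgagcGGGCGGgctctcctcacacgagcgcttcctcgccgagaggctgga
Hs2st1: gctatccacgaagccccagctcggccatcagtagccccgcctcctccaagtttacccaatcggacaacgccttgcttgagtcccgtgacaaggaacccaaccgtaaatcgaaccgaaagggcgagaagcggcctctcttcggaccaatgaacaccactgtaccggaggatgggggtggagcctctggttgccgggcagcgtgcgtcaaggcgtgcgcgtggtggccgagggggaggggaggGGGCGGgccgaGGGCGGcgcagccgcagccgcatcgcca
Hs6st1: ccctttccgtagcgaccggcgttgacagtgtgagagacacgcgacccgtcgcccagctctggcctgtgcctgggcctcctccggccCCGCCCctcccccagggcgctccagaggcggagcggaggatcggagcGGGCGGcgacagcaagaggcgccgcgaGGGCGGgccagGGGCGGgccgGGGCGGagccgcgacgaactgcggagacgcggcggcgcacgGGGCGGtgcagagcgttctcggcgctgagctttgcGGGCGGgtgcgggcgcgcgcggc
Hspg2: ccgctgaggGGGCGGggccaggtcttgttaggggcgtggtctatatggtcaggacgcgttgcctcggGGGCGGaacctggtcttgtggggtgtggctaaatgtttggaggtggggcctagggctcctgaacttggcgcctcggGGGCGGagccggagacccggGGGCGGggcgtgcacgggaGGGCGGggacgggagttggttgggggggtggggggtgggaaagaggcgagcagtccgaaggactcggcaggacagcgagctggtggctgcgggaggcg

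A script searched both strands of each start region for the GC box, for CCAAT, for the TATA box TATAAA, for the E box CACGTG, for the ETS core CGGAAG and for the AP-1 motif TGACTCA, and no matched base belonged to more than 1 match. Hs6st1 held 7 GC boxes, Hspg2 5, Glce 3 and Hs2st1 2, while Ext2 held 0. Among all 32851 promoters of the same length, 34.7% hold at least 1 GC box. Ext2 held 1 E box, a motif found in 6.79% of promoters, and Hs2st1 held 2 CCAAT motifs, which 36.1% of promoters hold. TATAAA (13.1% of promoters), CGGAAG (16%) and TGACTCA (4.94%) were in none of the 5. The GC content was 56.4% for Ext2, 66.1% for Hs2st1, 67.1% for Glce, 70.4% for Hspg2 and 77.5% for Hs6st1, against a median of 52.5% over all promoters. The members Ndst2 and Sulf2 also had an entry, with a GC content of 66.1% for Ndst2 and of 57.1% and 61.8% for the 2 starts of Sulf2. Ndst2 held 3 GC boxes and 1 CCAAT motif. The first start of Sulf2 held 1 GC box and 1 TATAAA, and the second 1 CCAAT motif. GC boxes were therefore not limited to the members shown. A match is a description of these letters, not a site.

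Of 31 other genes of heparan sulfate metabolism, 15 (48.4%) were lower in E0771-LG, beside 35.3% of all genes. Another 2 (6.45%) were higher, beside 19.2%, and the median log2 fold change was −0.38. Under median-of-ratios scaling 10 were lower (32.3%, beside 27.5% of all genes) and 4 higher (12.9%, beside 27%). Under quantile normalization 11 were lower (35.5%, beside 25.7%) and 2 higher (6.45%, beside 27.2%), with a median of −0.10. The difference between these shares was not tested. The lysosomal enzymes that break the chain down led this group, with 4 of 6 lower as deposited, 3 of 6 under either other scaling and 6 of 6 below 0. Ids, the iduronate sulfatase, had 2306 to 3126 reads in E0771 and 171 to 221 in E0771-LG (log2 fold change −3.74, SE 0.14, adjusted p 1.67e-07, 3 of 3 samples lower). Naglu (−2.12, adjusted p 4.66e-05) and Idua (−1.54, adjusted p 0.000328), both glycosidases of the same pathway, were lower in 3 of 3 samples. Hpse, the heparanase that cuts chains outside the cell, was lower as well (−2.62, adjusted p 0.000168, 3 of 3 samples). Over the 6 breakdown genes the median was −0.96, against −0.81 under median-of-ratios scaling and −0.61 under quantile normalization, and all 6 stayed below 0.

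Genes that supply sugars and sulfate split, with 5 of 9 lower and 2 higher, beside 35.3% and 19.2% of all genes. Under either other scaling 3 were lower and 2 higher. The shares of all genes were then 27.5% and 27% under median-of-ratios scaling and 25.7% and 27.2% under quantile normalization. The median of the supply genes was −0.48, against −0.33 under median-of-ratios scaling and −0.05 under quantile normalization. Papss1, which makes the sulfate donor, was lower (−0.72, adjusted p 0.000281), as was Ugdh, which makes UDP-glucuronic acid (−0.61, adjusted p 0.000335). Slc35d1, a transporter of UDP-sugars, was higher (0.92, adjusted p 0.000979), as was Bpnt2, a phosphatase that clears the spent sulfate donor in the Golgi (0.49, adjusted p 0.00683). In each of these 4 genes the groups do not overlap. Of 6 genes for the linkage region, 2 were lower, Xylt2 (−0.67, adjusted p 0.00347) and Pxylp1 (−1.02, adjusted p 0.000972), each in 3 of 3 samples. Calls of heparan sulfate genes that ended under another setting were those of Sgsh, Ugp2, Extl3 (0.0191, and 0.213 under median-of-ratios scaling and 0.054 under quantile normalization), Sdc2 (0.0101, and 0.0861 under median-of-ratios scaling) and Slc35b3 (0.0499). Sgsh (0.0438) was not called under median-of-ratios scaling (0.182), under quantile normalization (0.652) or without the filter (0.0533), nor without any 1 sample other than E0771 shCtrl replicate 1 (0.056 to 0.173). Ugp2 (0.0226) was not called under those scalings (0.121 and 0.0827), nor without E0771 shCtrl replicate 2 (0.089) or E0771-LG shCtrl replicate 3 (0.0982). Slc35b3 was not called under 6 of the 10 other settings, that is without the filter (0.0548), with the stricter filter (0.0504), under median-of-ratios scaling (0.147) or quantile normalization (0.854), with the replicate block (0.0532) or with voom (0.0502). Extl3 was not called without any 1 sample other than E0771-LG shCtrl replicate 1 (0.0506 to 0.0657), nor Slc35b3 without any 1 E0771 shCtrl sample or E0771-LG shCtrl replicate 3 (0.0657 to 0.177), while Agrn (−1.30, adjusted p 0.0194) was not called without E0771 shCtrl replicate 3 (0.0729).

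How much of each transcript the cells and tumors held was compared per kilobase of gene model. In all 4 cell groups Gpc1 was the highest of the 10 members and Sulf2 the lowest. Not divided by length, Hspg2 was the highest in all 4 and Gpc1 came next. In E0771 shCtrl cells the mean log2 level per kilobase ± SD (n = 3) was 5.70 ± 0.10 for Gpc1, 5.42 ± 0.37 for Hspg2 and 5.12 ± 0.04 for Ext2, followed by Glce (4.61 ± 0.12), Ndst1 (4.45 ± 0.01), Hs2st1 (4.24 ± 0.05), Hs6st1 (3.99 ± 0.10), Ext1 (3.86 ± 0.14), Ndst2 (2.61 ± 0.04) and Sulf2 (0.08 ± 0.42). In this order Gpc1 overlaps Hspg2, Hspg2 overlaps Ext2 and Hs6st1 overlaps Ext1, and the other neighbours do not overlap. E0771-LG shCtrl cells kept Gpc1 (5.15 ± 0.41) and Hspg2 (4.45 ± 0.32) on top, with Ndst1 next (4.38 ± 0.12), then Glce (4.12 ± 0.09) and Ext2 (3.66 ± 0.19), and Sulf2 last (−0.45 ± 0.34).

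Tumors of the PyMT model ranked the members otherwise. Sulf2 (5.77 ± 0.15) and Ndst1 (5.63 ± 0.14) led in C44-treated PyMT tumors and overlap each other, and Gpc1 was last (2.44 ± 0.41), overlapping Hspg2 (2.63 ± 0.67), Glce and Ext1 above it. Sulf2 had 3426 to 6917 reads in these 6 tumors. In 4T1 tumors with C44, on their own scale, Gpc1 (8.12 ± 0.09) was highest and stood clear of Hs2st1 (6.55 ± 0.29), while Glce was lowest (3.67 ± 0.47). The order of the members was the same from place 1 to 3 in 3B10-treated 4T1 tumors. In bulk tumors fewer cells of a type and less RNA per cell cannot be told apart.

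**Figure D2:**
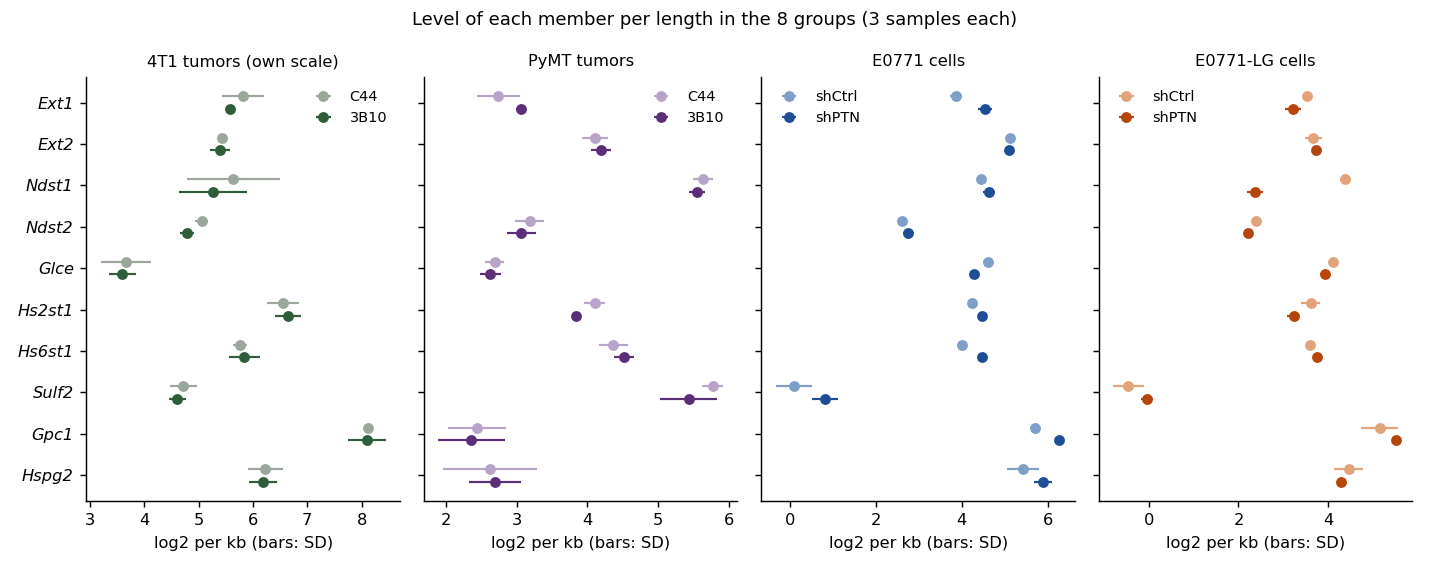
Mean log2 level per kilobase of gene model ± SD of the 10 members in the 8 groups (3 samples each), with the 4T1 tumors on their own scale. Gpc1 is the highest member in the 4 cell groups and in 4T1 tumors, and Sulf2 moves from last in the cells to the top pair in PyMT tumors.

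Pairs of enzymes that share a step can be set against each other per length. Ndst1 made up a median of 78% of Ndst1 plus Ndst2 in E0771 shCtrl cells, 80.9% in E0771-LG shCtrl cells, 84.8% in PyMT tumors with C44 and 66.4% in 4T1 tumors with C44. Ext1 made up 28.1% of Ext1 plus Ext2 in E0771 shCtrl cells and 46.2% in E0771-LG shCtrl cells. Of the genes that act on finished chains outside the cell, Sulf2 held a mean of 97.9% of the summed Sulf1, Sulf2 and Hpse in PyMT tumors with C44, 43.7% in 4T1 tumors with C44, 45.5% in E0771-LG shCtrl cells and 17% in E0771 shCtrl cells, where Hpse held 83%. Hs3st1 and Hs3st3b1, which add the rare sulfate at the third carbon, had 0 reads in the shCtrl samples of both lines, which allows up to 3 reads per library, whereas the tumors expressed both. Among heparan sulfate genes of all roles, the syndecans Sdc1 and Sdc4 and then Gpc1 were the 3 highest per length in every cell group.

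In E0771 cells the hairpin against Ptn came with more transcript of the polymerase Ext1, of Hs6st1 and of Gpc1 and less of Glce. Across the 10 members 8 log2 fold changes were above 0, with a median of 0.35 against −0.03 over all 10394 genes tested. In 7 of 10 members the 3 shPTN and 3 shCtrl samples do not overlap, 6 higher and 1 lower, beside 39.4% of all genes. Ext1, Hs6st1 and Gpc1 are among the 8.89% of genes called higher and Glce is among the 11.7% called lower. The members were chosen from this comparison, so nothing is read from these counts.

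Ext1 stood at 7.03, 6.77 and 6.84 in shCtrl and at 7.40, 7.73 and 7.53 in shPTN cells. Every shPTN sample is above every shCtrl sample, and the log2 fold change was 0.67 (SE 0.11). Its partner Ext2 stayed level, with 7.96, 7.98 and 8.05 against 8.06, 7.88 and 7.94 (−0.04, SE 0.08). The share of Ext1 in the pair, per length, went from a median of 28.1% (28.1% to 32.2%) to 40.5% (36.5% to 45%) without overlap.

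The modifying enzymes went both ways. Hs6st1 stood at 6.35, 6.54 and 6.49 in shCtrl and 6.89, 7.05 and 6.88 in shPTN cells, a clear gap with a log2 fold change of 0.48 (SE 0.09). Glce went the other way, from 7.26, 7.49 and 7.40 to 7.01, 7.08 and 7.05, again with no overlap (−0.34, SE 0.09). Smaller differences without overlap were those of Hs2st1 (0.23, SE 0.08) and Ndst1 (0.19, SE 0.09), while the groups of Ndst2 overlap (0.14, SE 0.11).

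Gpc1 had 7.96, 8.16 and 8.07 in shCtrl and 8.64, 8.67 and 8.60 in shPTN cells. The shPTN samples are tightly grouped and all higher (log2 fold change 0.57, SE 0.08). Perlecan, Hspg2, had 8.90, 9.26 and 9.64 against 9.53, 9.69 and 9.96, where the highest shCtrl sample lies within the range of the shPTN samples (0.46, SE 0.18). Sulf2 rests on few reads, 136 at most in shCtrl and 147 to 238 in shPTN cells, and its log2 levels of 2.98, 2.16 and 2.76 against 3.63, 3.03 and 3.44 are separate (0.73, SE 0.25).

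**Figure D3:**
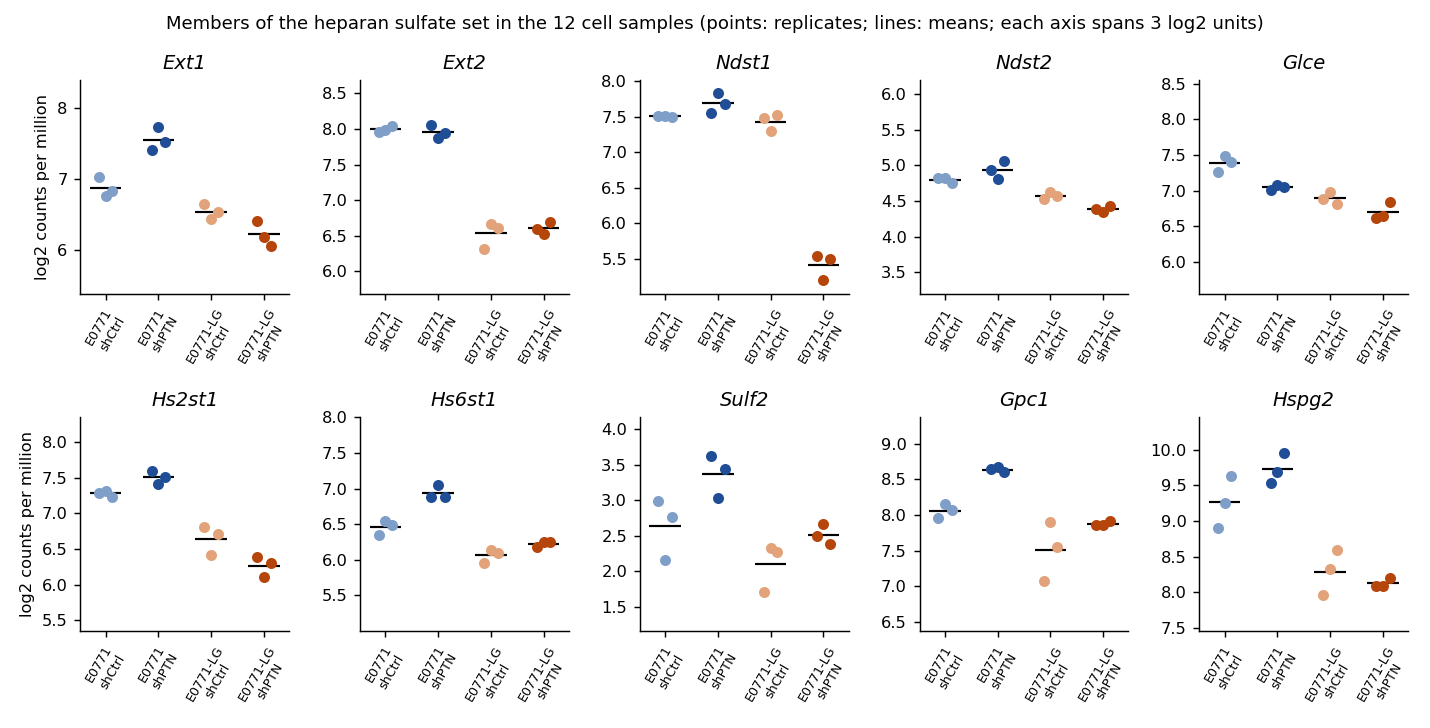
Log2 CPM of the 10 members in the 12 cell samples, with points for the 3 replicates of each group, lines for group means and 3 log2 units on each vertical axis. Ndst1 in E0771-LG shPTN cells and Ext2 in both E0771-LG groups stand well below the other groups.

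Outside the 10 members, 32 heparan sulfate genes were tested in E0771 cells by limma, and 6 were higher (18.8%, beside 8.89% of all genes) and 2 lower (6.25%, beside 11.7%) in shPTN cells. Sdc3 is one of the 6, and its call is not relied on. Core proteins made up 3 of the other 5: Sdc4 (log2 fold change 0.59, adjusted p 0.0129), Sdc1 (0.44, adjusted p 0.00935) and Col18a1 (0.68, adjusted p 0.00919), each higher in 3 of 3 samples. Sdc3 (1.64, adjusted p 0.0442) had only 6 to 14 reads in shCtrl and 22 to 31 in shPTN cells, it passed the filter through its shPTN samples alone, and with a pseudocount of 1 it was not called (0.74, adjusted p 0.0528). Sdc4 and Sdc1 are syndecans that carry heparan sulfate through the membrane. The breakdown enzyme Gusb was higher (0.35, adjusted p 0.0303), and the sulfate donor transporter Slc35b2 rose as well (0.37, adjusted p 0.0252). The 2 lower genes were Slc35d2 (−0.87, adjusted p 0.0448) and Agrn (−0.42, adjusted p 0.0424), of which Agrn overlaps between groups. Without the filter 4 of the 8 were called, those lost being Gusb (0.0554), Sdc3 (0.0579), Slc35d2 (0.0689) and Agrn (0.089), and with all 12 cell samples in one fit Agrn (0.438), Col18a1 (0.241), Sdc3 (0.237) and Slc35b2 (0.0686) were not called. With E0771 shCtrl replicate 2 or 3 left out 3 such genes were called, and with shPTN replicate 3 left out 4 were called. Slc35b2 was not called without shCtrl replicate 1 (0.0695), 2 (0.0827) or 3 (0.0571) or shPTN replicate 1 (0.0596). Sdc3 was not called under 6 of the 9 other settings that kept it (0.0506 to 0.237) or without shCtrl replicate 2 (0.129) or 3 (0.124), nor Gusb without shCtrl replicate 2 or 3 or shPTN replicate 1 or 3 (0.0554 to 0.137). Slc35d2 was called only without shPTN replicate 1 (otherwise 0.067 to 0.15) and Agrn only without shCtrl replicate 1 (otherwise 0.0642 to 0.165) when 1 sample was left out.

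Markers of fibroblasts moved with the hairpin in these cultured cells. The summed level of the 8 measured of 10 fibroblast genes was 74.6, 101 and 86.4 CPM in E0771 shCtrl cells and 332, 293 and 331 in shPTN cells, with Pdgfra most abundant in the first (mean 36.5), Col3a1 in the second (mean 154), and Lum at 0 in shCtrl cells. Their part in the differences of the members was not tested.

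E0771-LG cells gave a different picture, led by Ndst1. Ndst1, Hs2st1 and Ext1 were lower in shPTN cells, and 6 of 10 log2 fold changes were below 0, with a median of −0.17 against 0.05 over 10405 genes tested. In 6 of 10 members the groups do not overlap, 4 lower and 2 higher, beside 57.1% of all genes. Of the members 0 are among the 24.3% of genes called higher, and Ndst1, Ext1 and Hs2st1 are among the 22.1% called lower. As before, the members were chosen from this comparison and these counts carry no test.

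Ndst1, the N-deacetylase that opens the way for later sulfation, had 7.48, 7.29 and 7.52 in shCtrl and 5.54, 5.20 and 5.50 in shPTN cells. In reads this was 3073 to 3412 against 664 to 982. Nothing lies between the groups, which are more than 1 log2 unit apart, and the log2 fold change was −2.02 (SE 0.12), the largest of the members in any of the 4 experiments. Ndst2 moved far less, from 4.53, 4.62 and 4.57 to 4.39, 4.34 and 4.43, although its groups do not overlap (−0.18, SE 0.13). The median share of Ndst1 in the pair, per length, was 80.9% (77.8% to 81%) in shCtrl and 53.5% (49.9% to 54.9%) in shPTN cells. Among the modifying enzymes as a whole Ndst1 went from a mean of 30.7% of the summed level to 10.8%.

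Hs2st1 stood at 6.81, 6.41 and 6.71 in shCtrl and 6.38, 6.11 and 6.30 in shPTN cells. The lowest shCtrl sample lies just above the highest shPTN sample, with a log2 fold change of −0.38 (SE 0.13). Ext1 had 6.65, 6.43 and 6.54 against 6.42, 6.19 and 6.06, a margin as narrow (−0.32, SE 0.12). Ext2 overlapped (0.07, SE 0.12), as did Glce (−0.19, SE 0.10). Of the remaining members, Hs6st1 (0.16, SE 0.10) and Sulf2 (0.42, SE 0.26, from 56 to 98 against 91 to 119 reads) were above 0, and in both the log2 levels of the groups are separate by a narrow margin. Gpc1 had 7.08, 7.91 and 7.55 against 7.85, 7.86 and 7.92, which overlap (0.37, SE 0.18), and Hspg2 overlapped too (−0.17, SE 0.14).

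**Figure D4:**
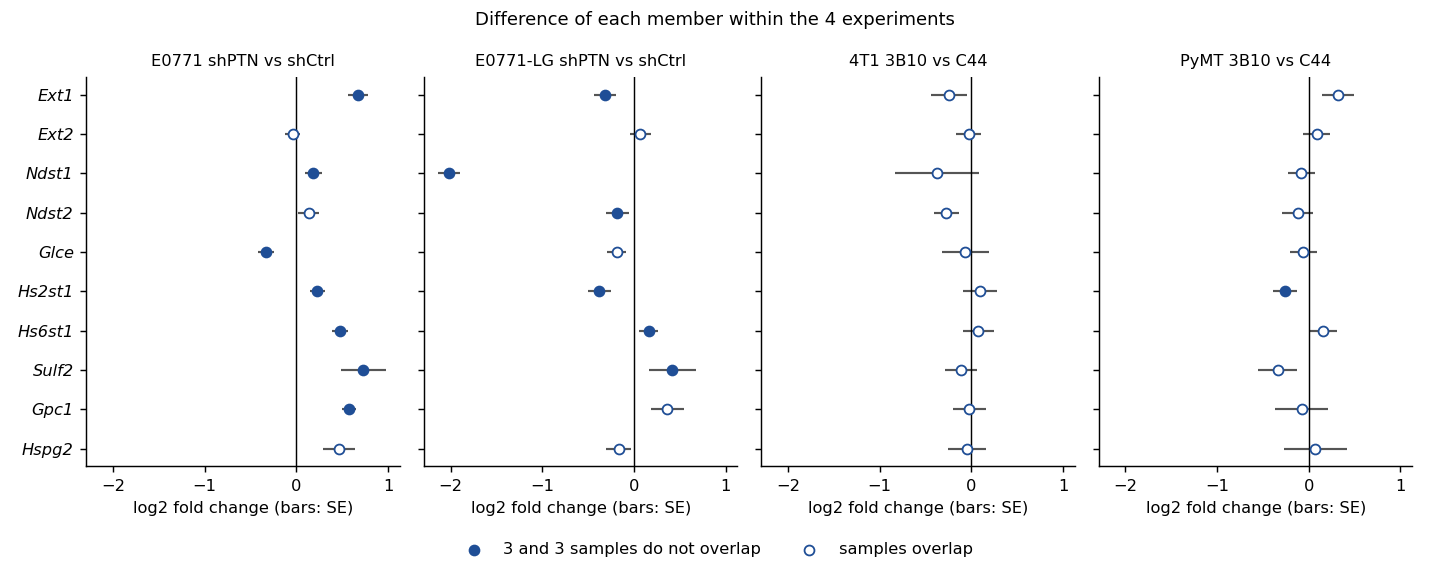
Log2 fold change with its SE of the 10 members in the 4 experiments (3 against 3 samples each), with filled points where the samples of the 2 groups do not overlap. Ndst1 in E0771-LG cells, at −2.02, is the farthest point from 0.

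The counts of members among the called genes depend on the processing in this line. They went from 3 to 1 without the filter and under quantile normalization. They also went to 1 without E0771-LG shCtrl replicate 3, shPTN replicate 2 or shPTN replicate 3, and to 2 without shCtrl replicate 1. Over all genes the calls went from 4826 of 10405 to 4615 of 12091 without the filter and to 4719 of 10405 under quantile normalization. Without shCtrl replicate 3 they were 3687, without shPTN replicate 2 or 3 they were 3206 and 3644, and without shCtrl replicate 1 5113. The log2 fold change of Ndst1 stayed between −2.08 and −1.91 over the 16 alternatives in this comparison.

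Genes around Ndst1 were mostly lower too. Ndst1 lies on chromosome 18, where 258 genes were tested in the E0771-LG knockdown, and 80.6% of them had a log2 fold change below 0, with a median of −0.47. Over all genes 46.2% were below 0, with a median of 0.05. The 10 genes nearest to Ndst1 had a median of −0.65, ranging from −5.01 to 0.09, and Ndst1 was the 7th lowest of the 258. In the E0771 knockdown the median of that chromosome was −0.13. The part of the chromosome's shift in the Ndst1 difference was not tested. For Ext2 in the control lines, chromosome 2 had a median of −0.37 over 848 genes with 75.6% below 0, the 10 nearest genes had a median of −0.22, and Ext2 was the 79th lowest.

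**Figure D5:**
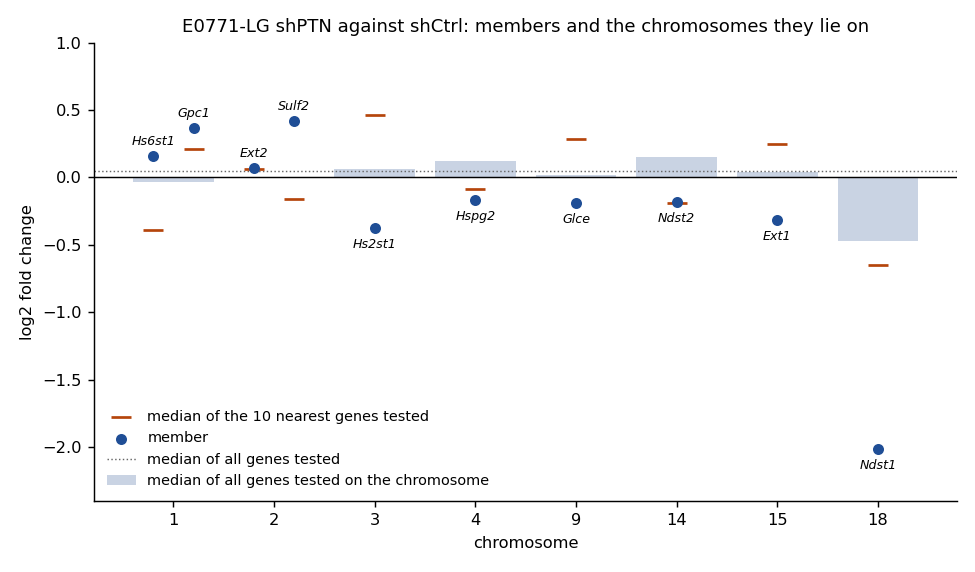
Log2 fold changes of the E0771-LG knockdown by chromosome, with bars for the median of the genes on each chromosome that carries a member, dashes for the median of the 10 nearest genes, dots for the members and a dotted line for the median of all genes. Chromosome 18 has the lowest bar, at −0.47, and Ndst1 lies below both its bar and its dash.

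Beyond the 10 members, 31 heparan sulfate genes were tested by limma in E0771-LG cells, and 3 were higher (9.68%, beside 24.3% of all genes) and 7 lower (22.6%, beside 22.1%) in shPTN cells. Of 3 genes for chain initiation and elongation, Extl3 (log2 fold change −0.78, adjusted p 0.00015) and Extl2 (−0.44, adjusted p 0.015) were lower in 3 of 3 samples, while Extl1 was above 0 with overlapping groups (1.09, adjusted p 0.0833). Fam20b, the xylose kinase of the linkage region, was lower (−0.67, adjusted p 0.000876), while B3gat3, which finishes that region, was higher (0.46, adjusted p 0.00719). Core proteins gave 2 lower genes of 6, the syndecan Sdc2 (−0.79, adjusted p 0.000276) and Tgfbr3, also called betaglycan (−0.70, adjusted p 0.00428). Breakdown enzymes went both ways, Idua higher (1.37, adjusted p 0.00109) and Sgsh lower (−0.55, adjusted p 0.00808), and of the supply genes Bpnt2 was lower (−0.55, adjusted p 0.00763) and Ugp2 higher (0.30, adjusted p 0.0462). Ugp2 was not called without the filter (0.0585) or under median-of-ratios scaling (0.0598), nor without shCtrl replicate 3 (0.204) or shPTN replicate 1 (0.064), 2 (0.125) or 3 (0.144), and Extl2 was not called without shPTN replicate 2 (0.0644) or 3 (0.053). The exons of Sgsh share 21.6% of their bases with Card14 on the other strand, and since the strand of counting is not stated their reads cannot be told apart.

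Marker lists moved here as well. The summed epithelial level was 159, 205 and 165 CPM in E0771-LG shCtrl and 426, 566 and 517 in shPTN cells, with Krt8 the most abundant in both (means 159 and 473), and 8 and 6 of 10 genes below 1 in all 3 samples. Fibroblast genes summed to 93.4, 149 and 110 against 58, 63.8 and 71.5, with Pdgfra most abundant in both and Postn at 0 in shCtrl cells. Leukocyte genes summed to 107, 102 and 103 against 53.6, 57.1 and 62.2, most of it Laptm5 (means 85.1 and 44.4) and then Cd14 (17.4 and 7.91), while Cd68 rose (1.06 and 4.65), with Tyrobp at 0 in both groups and Itgam, Cd3e and Cd3g at 0 in shCtrl cells. Endothelial genes, led by Eng, summed to 227, 218 and 210 against 153, 163 and 156. Eng fell from a mean of 212 to 145, while Esam rose from 1.3 to 6.58 and Pecam1 from 0.349 to 0.97. Leading the adipocyte genes was Fabp4, and their sum was 10.9, 18.3 and 12 against 1.18, 4.32 and 3.04. Their part in the differences of the members was not tested.

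Set side by side, the 2 knockdowns went in opposite directions for 6 members, of which 3 had separate groups in both lines. Groups were separate in 39.4% of all genes in E0771 and in 57.1% in E0771-LG. The share of all genes separate in both lines with opposite directions is not given, so nothing is read from this count. Ndst1, Ext1 and Hs2st1 were higher in all 3 E0771 shPTN samples than in any shCtrl sample and lower in all 3 E0771-LG shPTN samples. The effect in E0771-LG minus that in E0771 was −2.20 for Ndst1, −0.99 for Ext1 and −0.60 for Hs2st1 on the log2 scale, and these differences carry no test because both comparisons chose the members. The other 3 were Hspg2, which differed by −0.63, Ext2 and Ndst2, with groups that overlap in 1 line or both. Over all genes 34% of 10600 were called for this difference. Sulf2, Gpc1 and Hs6st1 were above 0 in both lines and Glce below 0 in both.

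In the tumors the members' log2 fold changes between 3B10 and C44 lay between −0.37 and 0.32. By limma 0 of 11467 genes (0%) passed in 4T1 tumors and 0 of 11361 (0%) in PyMT tumors, with 719 and 307 genes at an unadjusted p below 0.05. In 4T1 tumors 0 of 10 members had separate groups, beside 11.3% of all genes, and in PyMT tumors 1 of 10 did, beside 8.34%. The members' median log2 fold change was −0.06 in 4T1 and −0.07 in PyMT tumors, against 0.01 and 0.05 over all genes tested. These counts, too, come from comparisons that chose the members.

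The 4T1 libraries deviate from their group means in pairs across treatments. The correlation over 11467 genes, which are not independent replicates, was 0.478 for C44 replicate 3 with 3B10 replicate 1, 0.436 for replicate 2 of both and 0.416 for C44 replicate 1 with 3B10 replicate 3. In both libraries of the first pair the deviation falls with gene length (r −0.373 and −0.331 with log2 length, against 0.156 to 0.344 in the other 4). PyMT C44 replicate 1 (−0.446) and E0771 shPTN replicate 1 (−0.52) have such a slope too, and so, less steeply, do E0771-LG shPTN replicate 2 (−0.265, with 8 of 10 members below their group mean) and E0771 shCtrl replicate 3 (−0.256). In each library of the first 4T1 pair 8 of 10 members lie below their group mean. Ndst1 shows it plainly, at 6.12, 6.16 and 4.65 with C44 and 4.56, 5.69 and 5.55 with 3B10. The low sample of each group is the one from that pair, and the log2 fold change of −0.37 (SE 0.46) became −0.87 without C44 replicate 3 and −0.02 without 3B10 replicate 1. Glce follows the same samples, at 3.87, 4.00 and 3.13 with C44 and 3.32, 3.74 and 3.74 with 3B10 (−0.07, SE 0.26). Within each pair across treatments Ndst1 and Ndst2 were lower with 3B10 and Hs2st1 was higher, while the other members went both ways. The pairs were read from the same values, so these directions carry no test.

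The remaining members in 4T1 tumors had overlapping groups as well. Ndst2 had 5.14, 5.11 and 4.93 with C44 and 4.70, 4.94 and 4.74 with 3B10, overlapping by 1 sample, with a difference of 2.11 times the larger SD (−0.27, SE 0.14). Ext1 had 5.90, 6.17 and 5.40 against 5.63, 5.59 and 5.52, all of them within the C44 range (−0.25, SE 0.20). For Ext2, Hs2st1, Hs6st1, Sulf2, Gpc1 and Hspg2 the log2 fold changes lay between −0.12 and 0.10. Of 35 other heparan sulfate genes 3 had an unadjusted p below 0.05 in limma and 0 passed adjustment, among them Hpse (−0.61, unadjusted p 0.0348, adjusted p 0.741) and Sdc3 (−0.70, unadjusted p 0.00616, adjusted p 0.722). All 6 breakdown genes were below 0, beside 48.4% of all genes, and 2 of them had separate groups, beside 11.3%.

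PyMT tumors had a single member with separate groups, Hs2st1, at 7.31, 7.06 and 7.05 with C44 and 6.94, 6.82 and 6.88 with 3B10. The 3 treated tumors are lower by a small margin (−0.26, SE 0.13). Ext1 had 5.42, 6.02 and 5.82 against 6.14, 6.00 and 6.08, with 1 low C44 tumor, replicate 1, whose deviation falls with gene length (0.32, SE 0.17). Sulf2 had 8.21, 8.49 and 8.26 against 7.78, 8.44 and 7.72, and its middle 3B10 tumor overlaps the C44 range (−0.34, SE 0.21). Hspg2 had 6.67, 7.0 and 5.72 against 6.85, 6.62 and 6.13 (0.07, SE 0.34), and Gpc1 had 4.74, 5.25 and 4.43 against 4.68, 4.29 and 5.22 (−0.08, SE 0.29), both with overlapping groups. Of 36 other heparan sulfate genes 3 had an unadjusted p below 0.05 in limma and 0 passed adjustment, with Ids at −0.43 (unadjusted p 0.0214, adjusted p 1) and Uxs1 at 0.38 (unadjusted p 0.0467, adjusted p 1).

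Cell-type markers varied between tumors as well. In 4T1 tumors the epithelial sum was 3335, 3655 and 3648 with C44 and 5193, 4815 and 5333 with 3B10, and the leukocyte sum 1891, 1767 and 1841 against 1322, 1548 and 1171, led by Tyrobp, with 9 of 9 measured genes above 1 in every sample. Skeletal muscle genes summed to 32.7, 28.6 and 60.6 against 75.9, 213 and 362, and fibroblast genes, led by Col1a1, to 1456, 2071 and 1239 against 998, 4329 and 1754. Endothelial genes, led by Eng, summed to 239, 476 and 313 against 267, 414 and 205. In PyMT tumors the fibroblast sum was 2561, 3886 and 1403 with C44 and 2693, 1899 and 1933 with 3B10, and the C44 tumor with the lowest sum is the one with the lowest Hspg2. It is also the lowest of the C44 tumors in the epithelial (4331, against 6302 and 6039) and leukocyte sums (273, against 425 and 606). Endothelial genes, led by Pecam1, summed to 186, 223 and 138 against 191, 215 and 146, lowest in that C44 tumor again. The part of these cell types in the members' levels was not tested.

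Chondroitin sulfate starts from the same linkage region and draws on the same sulfate donor, and its genes were tested with the others. In E0771 cells 3 of 12 were higher in shPTN and 1 lower, beside 8.89% and 11.7% of all genes: Chpf, which helps to lengthen the chain (0.56, adjusted p 0.00084), Chst12, a sulfotransferase (0.43, adjusted p 0.0207), and Bgn, a core protein with 4 to 8 reads in shCtrl and 34 in each shPTN sample (2.36, adjusted p 0.0045, and 1.11 with a pseudocount of 1), and Csgalnact1, which starts the chain, lower (−1.04, adjusted p 0.00662). Chst12 was not called without E0771 shCtrl replicate 2 (0.0804) or 3 (0.0795) or shPTN replicate 3 (0.0808), and Bgn not with all 12 cell samples in one fit (0.0545). Bgn passed the filter through its shPTN samples alone, and without the filter it was called as well (0.00792). In E0771-LG cells 2 of 14 were higher and 3 lower, beside 24.3% and 22.1% of all genes, with Vcan, the core protein versican (−0.92, adjusted p 0.00117), Csgalnact2 (−0.63, adjusted p 0.0016) and Chsy1, a polymerase (−0.49, adjusted p 0.00221), lower in 3 of 3 samples. The 2 higher genes were the core proteins Ptprz1 (2.16, adjusted p 0.0012) and Dcn (1.64, adjusted p 0.0486), which came to 1.38 and 0.90 with a pseudocount of 1. Ptprz1 had 12 to 22 reads in shCtrl and 62 to 82 in shPTN cells. Its shCtrl samples alone would not have met the filter, and without the filter Ptprz1 was called as well (0.00326). Dcn had 5 to 30 reads in shCtrl and 34 to 61 in shPTN cells, and its call is not relied on. It was not called without the filter (0.0919), under quantile normalization (0.112), with eBayes that is not robust (0.0549) or with all cells in one fit (0.0906), nor without E0771-LG shCtrl replicate 3 (log2 fold change 0.92, adjusted p 0.148) or shPTN replicate 2 (0.172) or 3 (0.133). Between the control lines 7 of 12 were lower in E0771-LG (6 under either other scaling), beside 35.3% of all genes, with Csgalnact1 (−1.03, adjusted p 0.00406), Chpf2 and Chst12 (−0.68, adjusted p 0.00314) the farthest below 0. The 2 higher genes, beside 19.2% of all genes, were Vcan (0.50, adjusted p 0.0266, 0.0523 without the filter, and 0.0616 to 0.0869 without replicate 2 or 3 of either line) and Dsel. Chpf2 was lower (−0.88, adjusted p 0.000149), though 44.1% of its exonic bases are shared with Smarcd3 on the other strand. Dsel had 0 reads in all 3 E0771 shCtrl samples and 36 to 73 in E0771-LG shCtrl samples, at least 17.7-fold higher against a floor of 3 reads per library, a bound that covers counting error only. It passed the filter through its E0771-LG samples alone, and without the filter it was called as well (7.99e-05).

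The genes most like each member were sought over the 12 cell samples among 10223 genes by the correlation of log2 levels, a description over samples that share line and hairpin. Ext2 ran closest with Col6a2 (r 0.998) and Lzts3 (0.996), and Ndst1 with Mlec (0.989) and Fam53c (0.986). Hs2st1 was nearest to Zfp36l2 (0.985), Glce to Lipa (0.984) and Gpc1 to Plod1 (0.983). Ext1 was nearest to Opa3 (0.98), Hs6st1 to Cbx6 and Syt11 (0.975 each), Ndst2 and Hspg2 to Camta2 and Trrap (0.972 each), and Sulf2 to the breakdown enzyme Gusb (0.97). For Gpc1 18.9% of exonic bases are shared with Ankmy1 on the other strand, for Hs6st1 8.07% with Gm37335 and for Sulf2 2.62% with Ncoa3, and reads of such partners cannot be told apart without a stated strand of counting.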

How the data were processed

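The deposited table holds log2 values made by the authors for 12091 genes in 24 samples. Per the methods and labels of the authors, reads were aligned to mm10 with HISAT2 in a pipeline with StringTie, counted with featureCounts (named in the labels) and compared with edgeR. The step that made the deposited log2 values is named in neither. The steps between values show log2 CPM with an offset of 0.5 reads in 18 samples, from 15.63 to 21.12 M reads, and a further division by gene length in 4T1 tumors, whose depth is unknown.

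Each comparison was fitted on its own groups of 3 with limma 3.58.1 (R 4.3.3), with a mean-dependent prior and robust eBayes, over all genes at or above 1 in at least 3 samples, after taking values off the log scale above each sample's lowest. A test for counts was planned, and limma took its place because the deposited values are log2. Whole reads could be recovered in 18 samples, though not in 4T1 tumors, and were used only with voom as an alternative. P-values were adjusted by the Benjamini-Hochberg method over all genes tested, with a threshold of 0.05. The fits were tested on simulated data. Means, shares and motif searches used Python 3.11.15 with numpy 2.4.6, pandas 2.3.3 and matplotlib 3.10.9. All 12091 gene IDs matched GENCODE M21, which gave the GRCm38 positions and lengths, while the symbols are those of the deposited table.

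The members and the gene lists (heparan sulfate by role, chondroitin sulfate, cell-type markers) were chosen with earlier results of these data known. Besides the members and Ptn, the text names called genes of these lists, at most the 3 with the largest change in each direction per list, in tumors some of the genes with the smallest p per list, the leading and absent markers, and the 2 genes most correlated with each member. One gene was left out of the lists and is not reported here. Genes outside that rule were named after their values were seen. Alternatives were 10 other settings (filters, pseudocounts, scalings, eBayes that is not robust, a replicate block, one fit of all cells, voom on recovered reads), levels not divided by length, and each of the 24 samples left out in turn.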

Additional observations from a re-analysis of the deposited data

Results flagged for a closer look

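Knockdown of Ptn was done in both E0771 and E0771-LG cells, and the genes here had an effect in one line that differed from the effect in the other. Each value is the log2 effect in E0771-LG minus that in E0771, tested as an interaction in limma with 3 samples per group, with p adjusted over all genes tested. Both effects use their own control samples. Of all 10600 genes tested, 34% were called for this difference, so such calls are common. Of 32 heparan sulfate genes outside the members, 2 were called above 0 (6.25%, beside 18.3% of all genes) and 6 below 0 (18.8%, beside 15.7%). Of 15 chondroitin sulfate genes 2 were called above and 4 below 0.

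Genes of chain synthesis and supply come first. Extl3, which helps to start the chain, differed by −0.85 (adjusted p 0.000102), and Bpnt2, which clears the spent sulfate donor, by −0.73 (adjusted p 0.00402). Fam20b, the xylose kinase, differed by −0.52 (adjusted p 0.0279), and the transporter Slc35d2 by 1.26 (adjusted p 0.0273, and 0.0511 under quantile normalization). Fam20b did not pass without E0771 shCtrl replicate 1 (0.0548) or 3 (0.0765), E0771 shPTN replicate 2 (0.0716), E0771-LG shCtrl replicate 1 (0.0532) or E0771-LG shPTN replicate 2 (0.0809), nor Slc35d2 without E0771 shCtrl replicate 2 (0.0613) or 3 (0.0538) or each of those last 3 samples (0.0652, 0.0543 and 0.0791). Among the syndecans Sdc2 differed by −0.75 (adjusted p 0.00135) and Sdc4 by −0.66 (adjusted p 0.0131).

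Breakdown enzymes gave Sgsh with −0.93 (adjusted p 0.0015) and Idua with 1.14 (adjusted p 0.00531). Of the chondroitin sulfate enzymes Chpf differed by −0.75 (adjusted p 0.000331) and Csgalnact2 by −0.90 (adjusted p 0.000789), and the core protein Vcan by −0.87 (adjusted p 0.00422). Core proteins of that family with few reads gave wide values: Bgn −5.44 (adjusted p 0.00236), Dcn 3.07 (adjusted p 0.0467) and Ptprz1 2.39 (adjusted p 0.0412). Bgn had 0 to 29 reads in E0771-LG cells, Dcn 0 to 4 and Ptprz1 5 to 33 in E0771 cells, so 1 of the 2 effects in each difference lies near the lowest values. Without the filter they passed as well (0.00245, 0.0337 and 0.0499). Their size depends on the pseudocount, and with a pseudocount of 1 they came to −1.86, 1.04 and 1.43. With the replicate block Dcn (0.0512) and Ptprz1 (0.0519) did not pass, and with voom Dcn did not (0.0666). Nor did Dcn without any 1 E0771 shCtrl sample, E0771 shPTN replicate 2 or 3, E0771-LG shCtrl replicate 3 or E0771-LG shPTN replicate 2 or 3 (0.0534 to 0.118), or Ptprz1 without E0771 shCtrl replicate 2 or 3, E0771 shPTN replicate 2, E0771-LG shCtrl replicate 1 or 3 or any 1 E0771-LG shPTN sample (0.0556 to 0.102).

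For 3 members every E0771 shPTN sample lay above every shCtrl sample and every E0771-LG shPTN sample lay below. The log2 difference between lines was −2.20 for Ndst1, −0.99 for Ext1 and −0.60 for Hs2st1. For these members, which were chosen from the same comparisons, the difference was not tested as evidence. The share of all genes with such a pattern is not given.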

How the results depend on the processing

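Among counts of calls under the alternatives, 279 stayed within 1.5 times the reported count and 15 did not. Among tested log2 fold changes, 118 kept the direction and lost the call, and 8 turned, none of them called. Those that turned were, in the control lines, Ndst1 to 0.07 under median-of-ratios scaling and Ndst2 to 0.063 and Sulf2 to 0.044 under quantile normalization. In PyMT tumors with 1 sample left out they were Extl1 (2 cases, range −0.267 to 0.742), Hpse (1 case, −0.054 to 0.887) and Hs3st3b1 (2 cases, −0.619 to 0.827). Of the values without a test 5 moved by more than the replicate SD. The other 2174 log2 fold changes, tested or not, kept direction and call or moved by less than that SD, and 25 of these, all without a test, changed sign. Without the filter, where 12091 genes share the adjustment, 4 other heparan sulfate genes were called in the E0771 knockdown instead of 8, and 1 member instead of 3 in the E0771-LG knockdown. Quantile normalization also left 1 member there. Over all genes 1874 instead of 2140 were called without the filter in the E0771 knockdown. In the E0771-LG knockdown 4615 were called without the filter and 4719 under quantile normalization, instead of 4826. In the control lines median-of-ratios scaling left 4 members of 7, with 27.5% of all genes called lower instead of 35.3%. The cause was not tested for either scaling. With 1 sample left out, calls in the E0771 knockdown ran from 1164 to 2139 over all genes, from 3 to 6 over the members and from 3 to 6 over the other heparan sulfate genes. In the E0771-LG knockdown they ran from 3206 to 5113 and, over the members, from 1 to 4. For the difference between lines they ran from 2628 to 3910 over all genes and from 3 to 6 over the members.

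Divided by length or not, the members kept the same place in 4 of 10 cases in PyMT C44 tumors, E0771 shCtrl and E0771-LG shCtrl cells, 5 in PyMT 3B10 tumors and E0771-LG shPTN cells and 6 in E0771 shPTN cells. 4T1 values give no reads for voom, and one fit over both tumor models was not run because their scales differ.

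Same-numbered samples did not deviate together throughout, and the main fits do not pair them. The mean correlation of same-numbered deviations was 0.0256 in the E0771 and 0.0926 in the E0771-LG knockdown, −0.0478 in 4T1, 0.102 in PyMT and 0.128 in the control lines. For samples of different numbers it was −0.0115, −0.0482, 0.0301, −0.0486 and −0.0642 in that order. In each comparison 2, 3, 2, 3 and 4 of 6 samples correlated best with their own number. Some pairing by number in the cells is therefore not excluded. Hspg2 rose from replicate 1 to 3 in all 4 cell groups, but not in the tumors. With the replicate block 2450, 5012, 0, 0 and 5993 genes were called in that order, and 3762 for the difference between lines. The members called with the block were 6, 3, 0, 0 and 7, and 4 for that difference.

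Depth limits Sulf2 in the cells, with 56 to 238 reads, and Ptn after knockdown, with 12 to 56.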
